A study of Mus musculus with 16 samples.

Results

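Liver gene expression was compared between wild-type mice and mice lacking PPARα on control food, that is, without any added ligand of the receptor. The comparison took in 8 of the 16 arrays of the series, 4 per genotype, and 45037 probe sets, which gave 18193 genes when each gene was represented by its brightest probe set. Wild-type mice were pure-bred 129S1/SvImJ and PPARα-null mice were 129S4/SvJae, so that genotype and substrain cannot be told apart. All mice were males aged 3 to 5 months, each gave 1 liver RNA sample and 1 Affymetrix mouse genome 430 2.0 array, and the mice compared here ate normal food for 5 days. The other 8 mice, 4 of each genotype, received food with 0.1% (w/w) of the synthetic PPARα agonist Wy14643 over the same days. They served as a second comparison of the same genotypes in different animals. The sources used here do not name the targeted allele or say that the genotypes were littermates.

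PPARα is a nuclear receptor that binds DNA together with the retinoid X receptor, at sites made of a pair of direct repeats with a single base between them. Fatty acids and their derivatives are its natural ligands, and fibrates and Wy14643 are synthetic ones. In liver the receptor is known for driving the uptake, activation and oxidation of fatty acids in mitochondria, peroxisomes and microsomes, above all during fasting. The comparison on control food asks which of these genes differ between the genotypes when no drug is given.

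Values are log2 intensities throughout, and differences are wild type minus PPARα-null on the log2 scale with their standard error (SE), unless stated otherwise. A probe set or gene was called at an adjusted p under 0.01 with a fold over 1.5 (limma, Benjamini-Hochberg over all 45037 probe sets). Median intensities of the 8 arrays lay between 4.45 and 4.55 before the log, and Pearson's r over all probe sets was 0.992 to 0.995 within a genotype and 0.990 to 0.992 between genotypes. No array of the 8 stood apart in this respect, but the fourth wild-type array differed from its group for several genes named below. Across 16 arrays 12877 probe sets had a mean above 4, and folds of dimmer ones depend on the background correction. The number of arrays limits the precision.

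Ppara itself, the targeted gene, was measured by 3 probe sets. The brightest read 9.77, 9.89, 10.07 and 9.96 in wild-type arrays and 9.15, 8.82, 9.48 and 9.71 in PPARα-null arrays. The groups did not overlap, but its difference of 0.63 ± 0.17 did not pass (adjusted p = 0.140). The other two did, at 1.38 with means of 9.05 and 7.68, and at 1.59 with means of 7.76 and 6.17. All PPARα-null arrays still gave a signal in each probe set, and whether the probes lie inside the disrupted part is not given in the sources used here, so the lower values in PPARα-null are a weak check of the labels. Of the 20 measured genes nearest to Ppara on its chromosome, 10 on each side, 0 were called, and only 3 of them had a mean above 4. As 0.544% of all genes were called, 0 calls among 20 genes do not set these neighbours apart from the rest. The nearest on one side, Cdpf1, was the only one whose arrays did not overlap (0.47, adjusted p = 0.319), where 8.16% of all genes did not overlap.

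Few genes differed. In all, 159 probe sets were called (0.353% of 45037), 118 of them higher in wild type (0.262%) and 41 higher in PPARα-null (0.091%). At an unadjusted p under 0.05 there were 3737. By gene, 99 of 18193 were called (0.544%), 73 higher in wild type (0.401%) and 26 higher in PPARα-null (0.143%). Without the second wild-type array 15 genes were higher in PPARα-null, and 17 without either the third wild-type or the third PPARα-null array. None of the 159 probe sets had overlapping groups, against 6.48% of all probe sets that did not overlap. Most differences were moderate, since 85 and 34 probe sets in the respective directions exceeded 2-fold and only 23 and 6 exceeded 4-fold. The widest belonged to a probe set that the annotation gives to both Cyp4a31 and Cyp4a10, which read 9.53 to 11.28 in wild type and 2.40 to 3.55 in PPARα-null arrays.

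**Figure D1:**
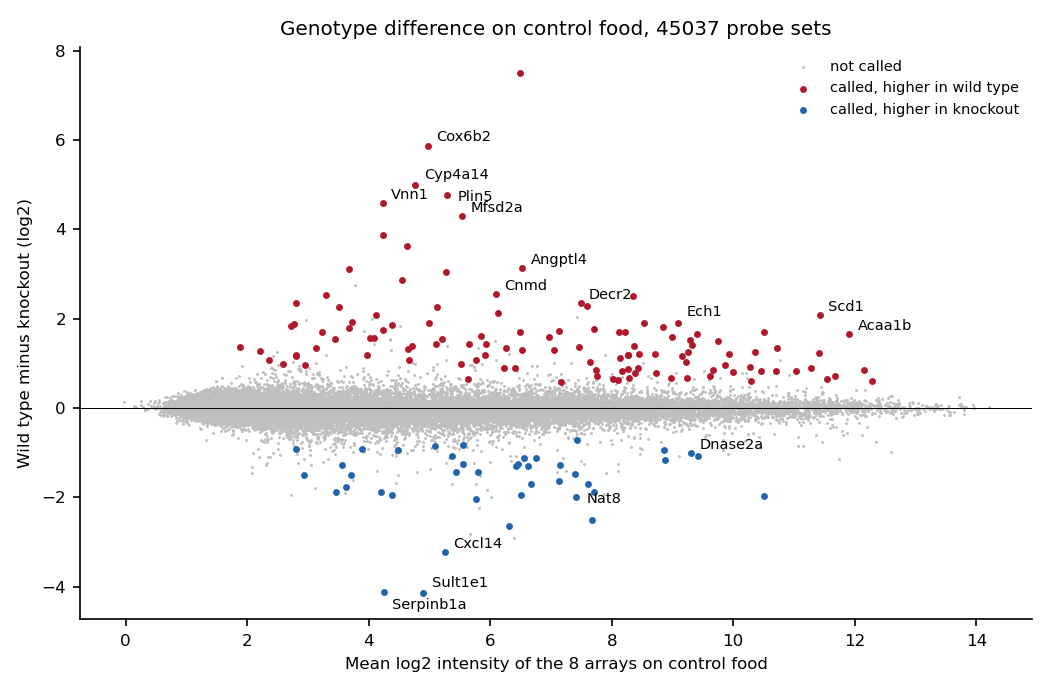
Difference between genotypes (wild type minus PPARα-null, log2, vertical axis) against the mean log2 intensity of the 8 arrays on control food (horizontal axis) for 45037 probe sets. Called probe sets are red where higher in wild type (118) and blue where higher in PPARα-null (41), and the labelled genes are named in the text; the widest differences lie among probe sets of middling or low level.

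Among genes, Cox6b2, a subunit isoform of cytochrome c oxidase known mainly from testis, differed most. It read 7.81, 8.16, 8.03 and 7.65 in wild type and 2.13, 1.62, 2.06 and 2.34 in PPARα-null arrays. The latter lie at background, taken as the highest array median of 2.24, so in wild type the gene stood at least 51.2-fold higher (fitted difference 5.88 ± 0.20, adjusted p = 3.75e-11). Vnn1, the pantetheinase vanin-1, read 6.28 to 6.75 in wild type and 1.48 to 2.36 in PPARα-null, at least 19.5-fold higher in wild type. Mfsd2a, a transporter of lysophosphatidylcholine, ranged from 6.70 to 8.55 and from 2.49 to 3.87 (4.30 ± 0.60).

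Cyp4a14, a microsomal fatty acid ω-hydroxylase, read 8.22, 8.35, 7.95 and 4.53 in wild type and 2.19, 2.89, 1.96 and 2.06 in PPARα-null. The fourth wild-type array lay far below the other three, yet above every PPARα-null array. The difference was 4.99 ± 0.84 (adjusted p = 0.00555), and 5.90 without that array. The call was lost in 7 of the 8 fits that left out 1 array. Its near neighbour in sequence and position, Cyp4a31, read 3.24 to 4.06 against 1.5 to 1.97, at least 2.64-fold higher in wild type. A second probe set of Cyp4a31 gave 0.58 and was not called. Members of this family are closely alike, and a probe set may measure more than 1 of them.

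Genes of lipid droplets and of lipoprotein handling were among the widest differences. Plin5, a droplet coat protein of oxidative tissues, read 8.04, 7.42, 7.19 and 8.09 in wild type and 2.62, 3.80, 2.58 and 2.63 in PPARα-null, a difference of 4.78 ± 0.31 (adjusted p = 7.39e-08). Its other probe set was called as well, at 3.63. Plin2, the coat protein of most liver droplets, was higher by 0.80 ± 0.14, a call that was lost in 6 of the 8 fits without 1 array, with an offset of 16, with only the control arrays and with the replicate number as a block. Fitm1, which takes part in droplet formation, was called at a level near background in both genotypes (2.57 and 1.19). With Plin5 these were the 3 called of 35 measured genes of triglyceride synthesis, lipolysis and droplets (8.57% higher in wild type, against 0.401% of all genes), whose median difference was 0.11, against 0.00148 over all genes. Angptl4, a secreted inhibitor of lipoprotein lipase, read 7.62, 7.94, 7.57 and 9.23 in wild type and 3.97, 5.28, 5.11 and 5.48 in PPARα-null. Its wild-type group spread more than those of most called genes, but the difference of 3.13 ± 0.40 passed (adjusted p = 3.12e-04); a second, dimmer probe set gave 0.05.

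**Figure D2:**
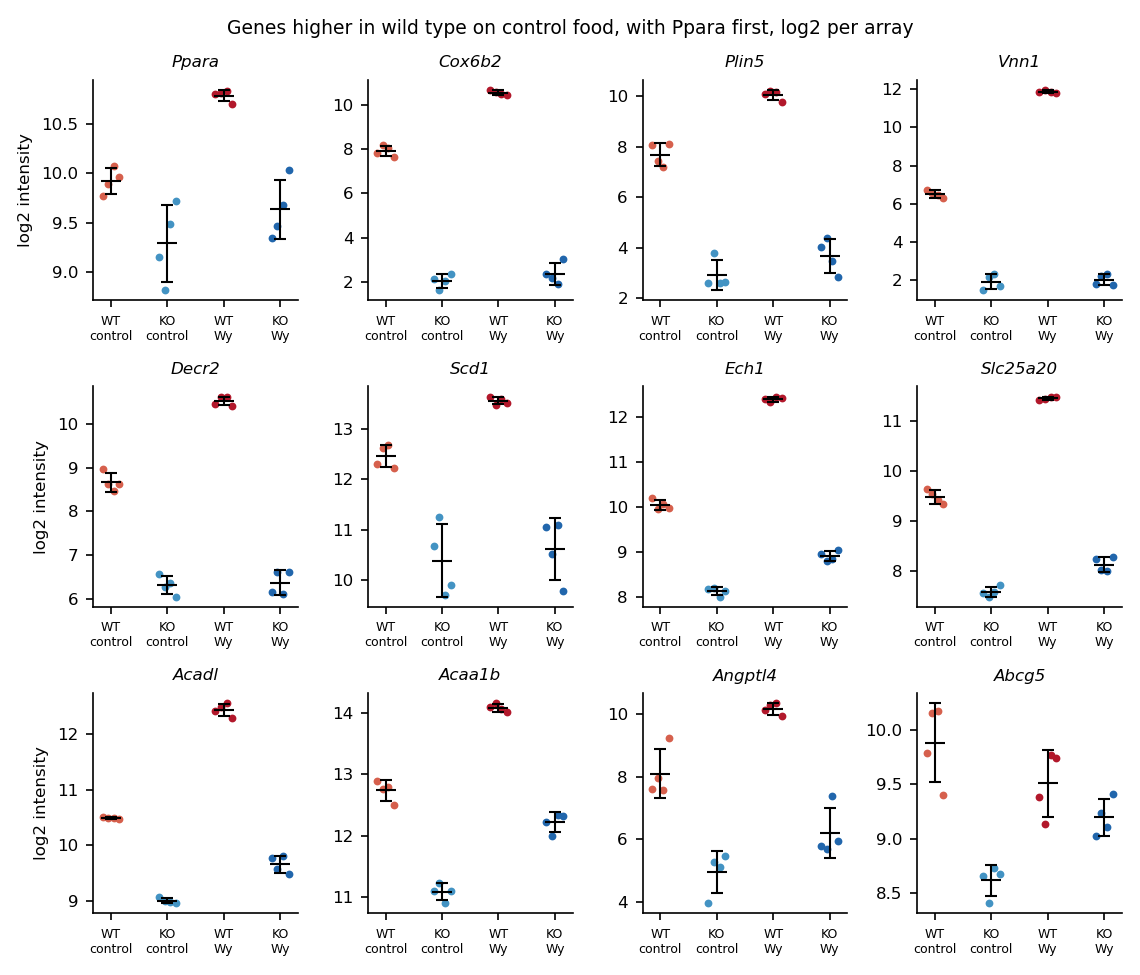
Log2 intensity per array (points, vertical axis), with mean and SD of 4 arrays (bars), in wild-type (WT) and PPARα-null (KO) liver on control food and on Wy14643 (Wy) for Ppara and 11 genes called higher in wild type on control food. The control groups of each gene do not overlap, from 7.65 to 8.16 against 1.62 to 2.34 for Cox6b2 to 9.40 to 10.17 against 8.41 to 8.73 for Abcg5; axes differ between panels and do not start at 0.

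Mitochondrial fatty acid oxidation gave the most calls of any list. It had 26 measured genes, and 12 of these were called higher in wild type (46.2%, against 0.401% of all genes), 0 were higher in PPARα-null, and 22 had a positive difference, with a median of 0.53. The arrays of 18 of the 26 did not overlap, all higher in wild type, against 4.18% of all genes. Ech1, an auxiliary isomerase of unsaturated fatty acids, read 10.20, 9.96, 10.07 and 9.98 in wild type and 8.19, 8.20, 8.01 and 8.14 in PPARα-null. Spread within genotypes was far smaller than the difference of 1.91 ± 0.09 (adjusted p = 1.31e-09). Slc25a20, the carrier that brings acylcarnitines into mitochondria, read 9.65, 9.54, 9.43 and 9.34 against 7.56, 7.49, 7.58 and 7.72 (1.90 ± 0.09). The enoyl-CoA isomerases Eci2 and Eci1 gave 1.66 ± 0.10 and 1.51 ± 0.08.

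Acyl-CoA dehydrogenases open each round of β-oxidation, and 3 of them were among the called genes. Acadl, for long chains, read 10.47 to 10.51 in wild type and 8.96 to 9.06 in PPARα-null (1.49 ± 0.09). Acadvl, for very long chains, gave 1.21 ± 0.07, and Acads, for short chains, gave 0.77 ± 0.09. Cpt2, which releases the acyl group from carnitine inside mitochondria, was higher by 1.20 ± 0.10. The carnitine transporter Slc22a5 gave 0.98 ± 0.15, and Mlycd, which breaks down malonyl-CoA, gave 0.59 ± 0.10, close to the fold needed for a call. The electron transfer flavoprotein passes electrons from these dehydrogenases to the respiratory chain. Its subunit Etfb read 10.70 to 10.81 against 9.72 to 9.87 (0.92 ± 0.08), and its oxidoreductase Etfdh 10.30 to 10.38 against 9.33 to 9.52 (0.96 ± 0.09). Of 37 genes of the respiratory chain itself 0 were called, with a median of 0.07 and a range of -0.13 to 0.38. Among them 31 had a positive difference, and the arrays of 8 did not overlap, all higher in wild type, against 4.18% of all genes. Ketogenesis had 4 measured genes, of which 0 were called; Fgf21, a hepatic hormone of fasting, read 2.76 and 2.09 on average, the latter at background (adjusted p = 0.211).

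In peroxisomes, 4 of 37 genes were higher in wild type (10.8%, against 0.401% of all genes) and 0 in PPARα-null, with a median of 0.15. Decr2, the peroxisomal dienoyl-CoA reductase, read 8.97, 8.62, 8.45 and 8.63 in wild type and 6.56, 6.28, 6.37 and 6.05 in PPARα-null (2.35 ± 0.14). The membrane protein Pxmp4 gave 1.73 ± 0.27. Acaa1b, a thiolase of the last step, was among the brightest of all called genes at 12.49 to 12.90 against 10.89 to 11.23 (1.66 ± 0.11), and the bifunctional enzyme Hsd17b4 gave 0.83 ± 0.08. In microsomes, 4 of 12 genes were higher in wild type (33.3%, against the same 0.401%), namely Cyp4a14, Cyp4a31, the fatty aldehyde dehydrogenase Aldh3a2 (1.71 ± 0.16) and the epoxide hydrolase Ephx2 (0.65 ± 0.09).

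Fatty acid synthesis and desaturation gave 2 calls among 27 genes (7.41%, against 0.401% of all genes), both of desaturases and both higher in wild type. Scd1, which makes monounsaturated fatty acids, read 12.31, 12.62, 12.69 and 12.23 in wild type and 10.68, 11.26, 9.70 and 9.89 in PPARα-null. Here the PPARα-null mice varied widely among themselves, and still none reached the wild-type range (2.08 ± 0.30, adjusted p = 0.00106). Its other probe set gave 2.50. Fads2, a desaturase of polyunsaturated fatty acids, gave 0.66 ± 0.09. In sterol transport, the adjacent genes Abcg5 and Abcg8, which together form the exporter of cholesterol into bile, were higher in wild type by 1.26 ± 0.17 and 1.18 ± 0.16. With Angptl4 they were the 3 called of 28 genes of lipoproteins and sterol transport (10.7%, against 0.401% of all genes). Cholesterol synthesis had 0 of 19 called, with a median of -0.25; Sqle and Hmgcs1 gave -1.12 ± 0.41 and -1.02 ± 0.34 (adjusted p = 0.412 and 0.330).

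Over the 7 lists that cover fatty acid handling, from uptake through oxidation to storage and synthesis, 25 of 164 measured genes were called higher in wild type and 1 higher in PPARα-null. Genes that belong to no pathway list gave 42 and 23 of 17545. The lists were compiled with the role of PPARα in view and with earlier results of these data known. These counts therefore describe the members and are no test of the lists.

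**Figure D3:**
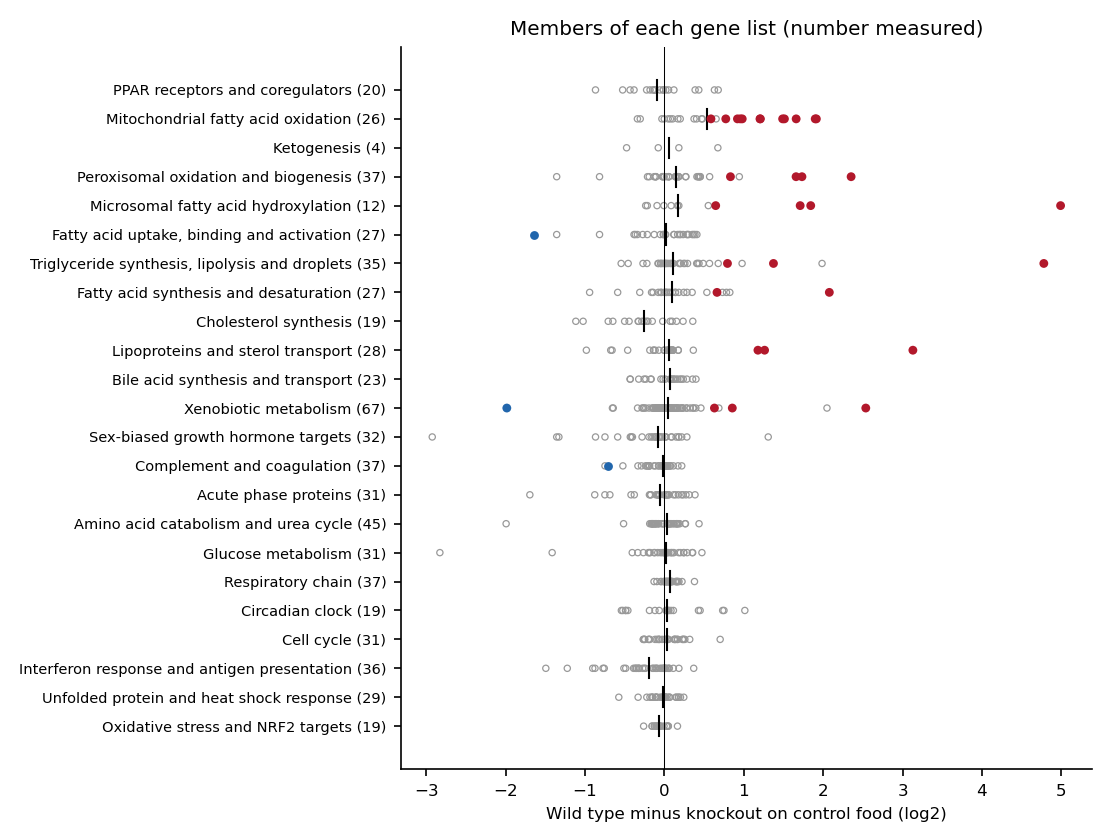
Difference between genotypes on control food (wild type minus PPARα-null, log2, horizontal axis) for each measured member of 23 gene lists (number measured in brackets), with called genes filled, red where higher in wild type and blue where higher in PPARα-null, others as open circles, and the list median as a bar. Mitochondrial fatty acid oxidation has 12 filled points of 26 and a median of 0.53, whereas 14 lists have none.

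Other genes outside these lists, picked after their values were seen, belonged to the same direction. Retsat, which saturates retinol, read 11.09 to 11.54 in wild type and 9.56 to 9.77 in PPARα-null (1.71 ± 0.11). Hsd17b11, a dehydrogenase found on lipid droplets, gave 1.25 ± 0.10, and Nceh1, a hydrolase of cholesterol esters, gave 2.08 ± 0.19. The reticulon Rtn4, a protein that shapes the endoplasmic reticulum, gave 1.70 ± 0.12. Adtrp, a hydrolase of fatty acid esters of hydroxy fatty acids, gave 1.42 ± 0.09, and Creb3l3, a transcription factor of the fasted liver, 0.72 ± 0.10. Igfbp2, a binding protein of insulin-like growth factors, gave 0.83 ± 0.13. By the rule for the widest differences, Cnmd (2.54 ± 0.37), a secreted protein known from cartilage, Myom2 (2.12 ± 0.28), a protein of the muscle sarcomere, and Rarres1 (1.77 ± 0.25), a retinoic acid responsive gene, were also among the top 15. The skeletal muscle markers were at background in 8 of 9 cases, and their mean level was 1.75 to 1.82 in wild-type and 1.70 to 1.74 in PPARα-null arrays. These ranges did not overlap, with wild type higher (exact permutation test, p = 0.0286, the smallest that 4 against 4 arrays can give). That p is not adjusted for the 12 marker lists, and a part of muscle RNA in Myom2 was not tested.

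Fewer genes were higher in PPARα-null liver, and 3 of the 26 belonged to a pathway list, against 31 of the 73 higher in wild type. The pathway lists held 648 of all 18193 genes. Of these 648, 0.463% were called higher in PPARα-null, against 0.143% of all genes, and 4.78% higher in wild type, against 0.401%. Sult1e1, the estrogen sulfotransferase, read 3.32, 3.40, 2.33 and 2.25 in wild type and 7.71, 5.74, 6.65 and 7.79 in PPARα-null (-4.15 ± 0.44, adjusted p = 3.45e-05). Serpinb1a, an inhibitor of neutrophil proteases, read 1.70 to 2.91 against 5.56 to 6.98, and was at least 16.8-fold higher in PPARα-null. The neutrophil markers themselves were at background in 7 of 8 cases. Cxcl14, a chemokine, read 2.2, 3.58, 3.67 and 5.10 against 6.58, 6.45, 7.70 and 6.74 (-3.23 ± 0.50). Its wild-type arrays spread over nearly 3 log2 units, the fourth being the highest, but none reached a PPARα-null array.

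Nat8, an acetyltransferase of cysteine conjugates, read 6.38, 6.76, 6.70 and 5.83 in wild type and 8.48, 8.29, 8.48 and 8.35 in PPARα-null (-1.98 ± 0.21). Close relatives of Nat8 exist in the mouse, so the probe set may measure more than 1 of them. Meg3, an imprinted long non-coding RNA, had 11 probe sets, of which 5 were called, all higher in PPARα-null, by -1.71 to -2.65. The other six lay near background. Nt5e, the ecto-nucleotidase CD73, gave -1.70 ± 0.22, the fatty acid hydroxylase Cyp2u1 -1.44 ± 0.23, the P450 Cyp2d12 -1.88 ± 0.23 and the RNA Snhg11 -1.43 ± 0.18. Only 1 of 3 probe sets of Nt5e and 1 of 2 of Snhg11 were called. Dimmer ones, with means not above 4, reached 0.09 and 0.25. Smaller differences in this direction were those of Olfml1 (-1.30), Tceal8 (-1.27), the linker histone H1f2 (-1.16) and Itih5 (-1.13), a protein that binds hyaluronan. Only 1 of 3 probe sets of H1f2 was called, with differences from -1.16 to -0.02, and 1 that was not called had a mean above 4. Pigo, a transferase of the glycosylphosphatidylinositol anchor, gave -1.26 in 1 probe set but -0.35 and 0.51 in the other two, so its direction is uncertain.

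Of 67 measured genes of xenobiotic metabolism, 3 were called higher in wild type (4.48%, against 0.401% of all genes) and 1 higher in PPARα-null (1.49%, against 0.143%). The former were the P450 Cyp2c38, at least 5.03-fold higher in wild type, the carboxylesterase Ces1e (0.86 ± 0.14) and the glutathione transferase Gstm4 (0.63 ± 0.11); the latter was Nat8. All of these come from families of like sequence. Cyp2c38 and Gstm4 lost their call in all 8 fits that left out 1 array, Ces1e in 4 and Nat8 in 0. Complement and coagulation gave 1 call among 37 genes (2.70%, against 0.143% higher in PPARα-null), protein S (Pros1, -0.71 ± 0.12). The call of Pros1 was lost in 7 of the 8 fits. With lists of these sizes a single call already lies above the share over all genes. None of 23 genes of bile acids, 32 sex-biased targets of growth hormone, 31 acute phase genes, 45 of amino acid catabolism, 31 of glucose metabolism, 19 of the clock, 31 of the cell cycle, 36 of the interferon response, 29 of the unfolded protein response, 19 of oxidative stress or 20 receptors and coregulators was called. Some of their members had wide differences that failed the test. Bcl6, a repressor higher in male liver, read 4.23, 4.44, 5.00 and 6.07 against 8.64, 6.48, 8.13 and 8.17 (-2.92 ± 0.62, adjusted p = 0.0370). Asns, which makes asparagine, gave -1.99 ± 0.53 (adjusted p = 0.145) and the acute phase gene Lcn2 -1.69 ± 0.39 (adjusted p = 0.0655). The clock output genes Dbp and Usp2 spread over 5.22 to 10.08 and 2.38 to 7.30 within wild type alone.

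**Figure D4:**
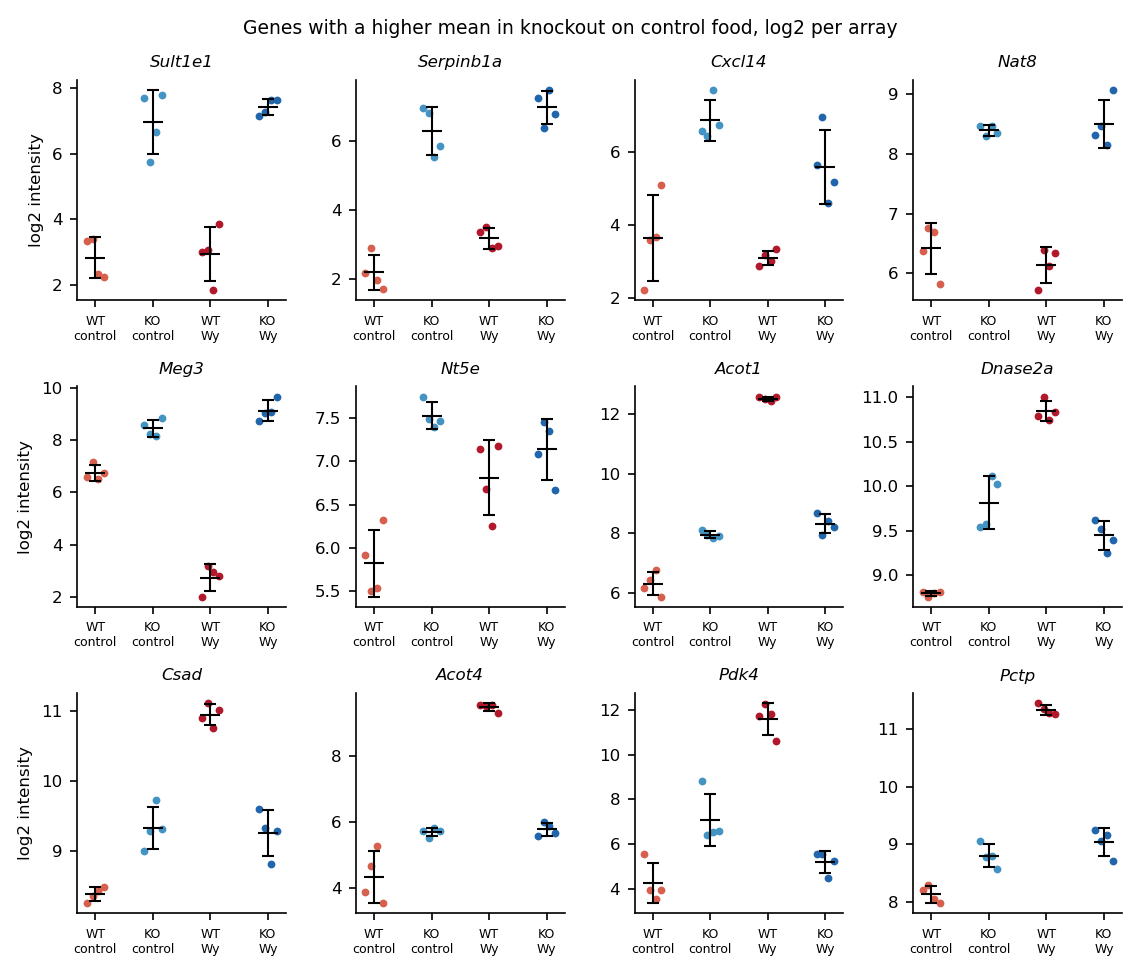
Log2 intensity per array (points, vertical axis), with mean and SD of 4 arrays (bars), in wild-type (WT) and PPARα-null (KO) liver on control food and on Wy14643 (Wy) for 12 genes with a higher mean in PPARα-null on control food; Acot4, Pdk4 and Pctp were not called. For the 6 genes from Acot1 to Pctp wild type lies below PPARα-null on control food and above it on Wy14643, as for Acot1 (6.30 and 7.95 against 12.52 and 8.31); axes differ between panels and do not start at 0.

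In the uptake, binding and activation of fatty acids, the only called gene of 27 (3.70% higher in PPARα-null, against 0.143% of all genes) went against the other fatty acid lists. Acot1, a cytosolic acyl-CoA thioesterase, read 6.16, 6.43, 6.75 and 5.87 in wild type and 8.10, 7.94, 7.83 and 7.90 in PPARα-null (-1.64 ± 0.17, adjusted p = 2.48e-05). On Wy14643 the order was turned, with means of 12.52 and 8.31, and the difference on Wy14643 exceeded that on control food by 5.85 ± 0.24. In all, 4 of the 26 genes higher in PPARα-null on control food were called higher in wild type on Wy14643. The others were the lysosomal nuclease Dnase2a (-1.02 ± 0.13 on control food and 1.39 on Wy14643), Csad, which makes the taurine precursor hypotaurine (-0.95 ± 0.16 and 1.70), and the laminin subunit Lamb3 (-0.92 ± 0.15 and 6.23), which was dim on control food at 2.35 and 3.27. Their interactions were all called, at 2.41 ± 0.18, 2.64 ± 0.22 and 7.15 ± 0.22. On control food Csad lost its call in 7 and Lamb3 in 6 of the 8 fits that left out 1 array, Acot1 and Dnase2a in 0. No gene was called in the reverse manner, higher in wild type on control food and lower on Wy14643.

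Some relatives of Acot1 and other genes high in wild type on Wy14643 had a lower wild-type mean on control food without passing the test. The peroxisomal thioesterase Acot4 read 3.87, 4.65, 5.27 and 3.53 against 5.71, 5.51, 5.80 and 5.73 (-1.36 ± 0.26, adjusted p = 0.0145), and 3.69 on Wy14643. Acot3 and Acot2 gave -0.82 ± 0.27 and -0.34 ± 0.23 (adjusted p = 0.326 and 0.769), and 5.90 and 3.25 on Wy14643. The groups of Acot2 overlapped on control food, at 3.54 to 5.05 in wild type and 4.56 to 4.89 in PPARα-null. Thioesterases of this cluster share much sequence, and their probe sets may not be independent. Pdk4, the kinase that shuts off pyruvate dehydrogenase in fasting, read 5.56, 3.95, 3.54 and 3.98 in wild type and 8.82, 6.40, 6.53 and 6.58 in PPARα-null. Each group had 1 high array, the first, and the difference of -2.83 ± 0.51 just missed the threshold (adjusted p = 0.0106); on Wy14643 it was 6.39. Pctp, which transfers phosphatidylcholine, gave -0.68 ± 0.13 (adjusted p = 0.0131) and 2.30. The lipases Mgll, Lipg, Lipe and Pnpla2 were not called on control food either, with 0.57, 1.99, 0.41 and -0.08 (adjusted p = 0.0176, 0.310, 0.476 and 0.935), nor was Txnip (0.24, adjusted p = 0.862). Of the 8 genes the study followed up, which were chosen partly on these mice, Etfb and Etfdh were thus the 2 called. That is 25% higher in wild type, against 0.401% of all genes.

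The comparison of genotypes on Wy14643 rests on 8 other mice of the same substrains and shares no array with that on control food. Both come from 1 fit with a shared estimate of the spread, so their tests are not independent. It called 2776 genes (15.3% of all). Of the 99 genes called on control food 86 were called in the same direction on Wy14643, which is 86.9% of the former and 3.10% of the latter. Among those higher in wild type it was 68 of 73, where 8.12% of all genes were called in that direction on Wy14643, and their median difference was 1.37 on control food and 2.81 on Wy14643. Among those higher in PPARα-null it was 18 of 26 (7.13% of all genes), with medians of -1.36 on both foods. The interaction was called for 47 of the 73 and 11 of the 26. It subtracts the control-food difference by which these genes were picked, so these counts are no separate support. The share of all genes with a called interaction is not given here.

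**Figure D5:**
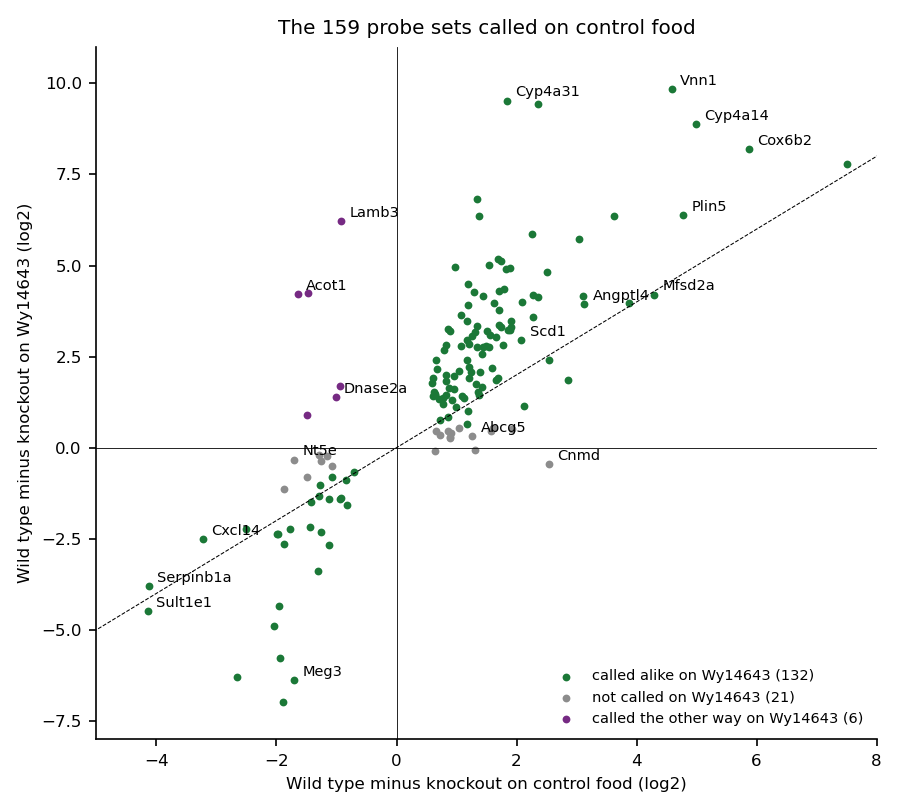
Difference between genotypes (wild type minus PPARα-null, log2) on Wy14643 (vertical axis) against that on control food (horizontal axis) for the 159 probe sets called on control food, each from separate mice; the dashed line marks equal differences. Of these, 132 were called alike on Wy14643 (green; 11.1% of all probe sets were called there), 21 were not called there (grey) and 6 were called the other way (purple), among them those of Acot1, Dnase2a and Lamb3.

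Genes fell into several patterns when values on both foods were set side by side. Of the 20 genes called in the mitochondrial, peroxisomal and microsomal oxidation lists, 16 had a called interaction, all with a wider difference on Wy14643, as for Ech1 (1.91 and 3.48), Eci1 (1.51 and 3.21), Cpt2 (1.20 and 2.84) and Slc22a5 (0.98 and 4.96). These genes were picked by their control-food difference, and the share of all genes with a called interaction is not given here. The count of 16 therefore only describes them. Outside these lists the interaction was called for Vnn1 (4.59 and 9.85). It was not called for Etfb (0.39 ± 0.12, adjusted p = 0.0358), Acads (0.43 ± 0.12, adjusted p = 0.0235), Cyp4a14 (3.89 ± 1.19, adjusted p = 0.0411) and Acaa1b. For Acaa1b the differences were 1.66 and 1.87, with an interaction of 0.21 ± 0.15 that was not called, while the gene was called higher on Wy14643 than on control food in both genotypes (1.35 in wild type and 1.14 in PPARα-null). A further set gave differences of like size on both foods, without a called interaction. These were Mfsd2a (4.30 and 4.20, interaction -0.10 ± 0.84), Ces1e (0.86 and 0.85, -0.01 ± 0.19), Sult1e1 (-4.15 and -4.49, -0.35 ± 0.62), Serpinb1a (-4.12 and -3.81, 0.31 ± 0.45), Snhg11 (-1.43 and -1.5, -0.08 ± 0.26), Nat8 (-1.98 and -2.36, -0.38 ± 0.30) and Pros1 (-0.71 and -0.66, 0.06 ± 0.17). The standard errors are wide for some, and an interaction that was not called does not show that the differences were equal.

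A last set of 9 genes was called on control food but not on Wy14643. Cnmd went from 2.54 to -0.45 and Ildr2, a membrane protein of the endoplasmic reticulum, from 1.30 to -0.06, both with a called interaction (-3.0 ± 0.52 and -1.36 ± 0.32). Abcg5 went from 1.26 to 0.31, with an interaction of -0.95 ± 0.24 (adjusted p = 0.0132) that missed the threshold, while its partner Abcg8 was still called at 0.66. Glo1, the glyoxalase that detoxifies methylglyoxal, was higher in wild type on control food in 4 of 4 probe sets, by 0.73 to 1.60; its brightest read 12.54, 12.54, 12.61 and 12.59 in wild type and 11.79, 11.79, 11.58 and 11.71 in PPARα-null. On Wy14643 it gave 0.46, a fold under 1.5. The kynurenine aminotransferase Kyat1 went from 0.90 to 0.41. Among those higher in PPARα-null, Nt5e (-1.70 and -0.33), Pigo (-1.26 and -0.35) and H1f2 (-1.16 and -0.22) had a called interaction, whereas the kinase Src (-1.87 and -1.15) did not. The interaction subtracts the control-food difference that picked these genes, so some narrowing on Wy14643 can come from the picking alone. Meg3 went the other way. Its difference grew from -1.71 to -6.39, since its level in wild type on Wy14643 was 2.74 and that in PPARα-null 9.13.

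Promoters of the called genes were searched for the element that PPARα and the retinoid X receptor bind, written as AGGTCANAGGTCA, a pair of AGGTCA repeats with any base between them, on both strands. Sequences were those of RefSeq (GRCm38.p6), from 250 bases before to 50 after each gene's start, and 14452 measured genes had one. An exact match was found in 7 of them (0.0484%), and a match with up to 2 mismatches in 574 (3.97%). Of 60 genes higher in wild type with a promoter 0 had an exact match and 4 had up to 2 mismatches (6.67%), namely Creb3l3, Mpp1, Plin2 and Slc25a20. Of 22 genes higher in PPARα-null, 1 had an exact match. This was Bco1, the oxygenase that cleaves β-carotene, which read 3.61 to 4.34 in wild type and 4.73 to 5.11 in PPARα-null (-0.94 ± 0.16). Its call, and with it this match, was lost in 5 of the 8 fits without 1 array, with an offset of 16, with only the control arrays and with the replicate block. The 250 bases before the start of Bco1 (chr8:117095615-117095864, plus strand) are shown because they hold the exact match, and those of Plin2 (chr4:86670060-86670309, minus strand) as the promoter of a called droplet gene with a partial one. Capitals mark the match, in both cases to the element on the strand opposite to the gene.
Bco1: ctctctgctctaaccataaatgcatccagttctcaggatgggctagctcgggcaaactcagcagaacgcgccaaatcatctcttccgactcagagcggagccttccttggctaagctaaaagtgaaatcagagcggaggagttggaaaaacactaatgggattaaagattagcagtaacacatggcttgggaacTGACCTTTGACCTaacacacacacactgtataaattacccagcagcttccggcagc
Plin2: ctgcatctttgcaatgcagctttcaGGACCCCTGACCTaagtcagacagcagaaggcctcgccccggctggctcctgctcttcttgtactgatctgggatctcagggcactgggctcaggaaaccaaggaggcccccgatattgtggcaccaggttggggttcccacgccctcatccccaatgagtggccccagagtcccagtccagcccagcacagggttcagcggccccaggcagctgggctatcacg
The matches of Creb3l3, AGGGGAGAGGTCA, and Mpp1, AGTTCACAGGTCG, lay 209 and 200 bases before the start. Mpp1, a scaffold protein of the membrane skeleton, was higher in wild type by 1.18 ± 0.15. A match describes letters only, and a promoter without one says nothing of sites outside this window.

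Markers of other cell types were looked at because cell composition could differ between the groups; in whole liver, fewer cells of a type and less RNA per cell cannot be told apart. None of the markers in 12 lists was called. The mean level of 10 hepatocyte markers was 12.71 to 12.78 in wild-type and 12.70 to 12.74 in PPARα-null arrays. Kupffer cell and macrophage markers were on average somewhat lower in wild type, at 5.79 to 5.97 against 5.94 to 6.24 over 15 genes of which 13 had a negative difference, and stellate cell markers gave 5.66 to 5.83 against 5.79 to 6.0. Both pairs of ranges overlap, and the part of these cells in genes higher in PPARα-null was not tested. Sinusoidal endothelial markers gave 6.25 to 6.41 and 6.22 to 6.34. Cholangiocyte, lymphocyte, neutrophil, adipocyte and pancreatic markers were for the most part at background, and erythroid markers gave 4.25 to 4.5 and 4.47 to 4.55. Skeletal muscle markers, also mostly at background, were slightly higher in wild type without overlap, as given above.

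Several probe sets were available for 48 of the 99 called genes. In 38 of the 48 all had the same sign and in 0 was any called in the opposite direction. Another probe set with a mean above 4 existed for 26 genes, and it was called alike in 19. When measured genes were placed in their order along the chromosomes, 2 pairs of called genes were direct neighbours, Abcg5 with Abcg8 and Cyp4a14 with Cyp4a31. Called genes close by but not next to each other were not looked for.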

How the data were processed

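Liver RNA was hybridized without pooling, 1 array per mouse. The deposited values are 1 intensity per probe set and array, which the authors made with GCRMA (version 2.20 in the submitters' processing notes); this adjusts the background by probe sequence, evens out the distributions of all arrays and summarizes each probe set. Since the deposited intensities reach 18204 or more on every control-food array, they were taken as linear, and log2 was computed with no offset. Such scaling hides any change common to most genes. The labels give 4 mice a group, and their labelling protocol and amount of RNA are not those of the study's methods.

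Of the probe sets, 64 controls were left out. By GEO's platform annotation 34945 probe sets had a single gene, 932 had more than 1 and 9160 had no gene, and 34741 matched RefSeq by gene identifier. Brightness was the mean over 16 arrays. The linear model (limma 3.58.1, R 4.3.3) took in all 16 arrays and estimated a mean for each of the 4 groups, as the study's methods use limma with an adjusted p under 0.01 and a fold over 1.5; the interaction is the genotype difference on Wy14643 minus that on control food. Tests are two-sided. Where a group mean lay at or under the highest array median, "at least" gives the fold against that median. Replicates are separate mice.

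Named were the 15 largest called differences in each direction among genes with non-overlapping groups and a higher mean of at least 6, Ppara, the study's 8 followed-up genes, and for each of the 23 pathway lists and 12 marker lists up to 5 called members, or 2 where none was called; not every one is printed, and further genes (Retsat, Hsd17b11, Nceh1, Rtn4, Adtrp, Igfbp2, Creb3l3, Mpp1, Bco1, Acadvl, Cpt2, Acads, Slc22a5, Mlycd, Acot2, Acot3, Csad, Lamb3, Glo1, Kyat1, Ildr2, Src, Cyp2d12) were named after their values were seen. The members and lists were chosen with earlier results of these data known. Of 848 listed genes 761 were measured. The fit was tested on simulated data for this comparison, with 50 changed probe sets for each fold. It called 72% of those with a fold of 1.8, 66% of those with a fold of 2, 90% for a fold of 3 and 100% for a fold of 4, and made 0 false calls. The changed probe sets were drawn only from those with a mean above 4. Noise was normal and independent, with the same mean in every group before the change. The rates therefore do not cover dim probe sets, outlying arrays or effects shared by arrays. Alternatives were filters on dim probe sets, other scalings, an offset, other moderations, other thresholds, only the control arrays, a replicate block and leaving out each array. Figures were drawn with matplotlib 3.10.9.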

Additional observations from a re-analysis of the deposited data

Results flagged for a closer look

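Differences between genotypes that changed with the food, by the called interaction (value on Wy14643 minus that on control food, log2, limma), were found for 41 of the 69 called genes that are named or listed here. They were wider in favour of wild type on Wy14643 for the mitochondrial genes Ech1 (1.57), Eci1 (1.70), Eci2 (1.37), Slc25a20 (1.42), Acadl (1.29), Acadvl (1.0), Cpt2 (1.63), Etfdh (1.0), Mlycd (1.19) and Slc22a5 (3.98), and for Cox6b2 (2.31). The same held for the peroxisomal and microsomal genes Decr2 (1.8), Pxmp4 (1.59), Hsd17b4 (0.99), Aldh3a2 (2.59), Ephx2 (0.84) and Cyp4a31 (7.68). Lipid genes and others in this direction were Plin2 (1.87), Fitm1 (5.00), Fads2 (1.74), Vnn1 (5.26), Nceh1 (1.92), Hsd17b11 (1.82), Retsat (1.67), Rtn4 (2.07), Adtrp (1.15), Igfbp2 (1.16), Mpp1 (1.79) and Gstm4 (0.90). The genes higher in PPARα-null on control food with a positive interaction were Acot1 (5.85), Lamb3 (7.15), Csad (2.64), Dnase2a (2.41), Nt5e (1.37), H1f2 (0.94) and Pigo (0.91). A negative interaction was found for Meg3 (-4.68), Cnmd (-3.0), Olfml1 (-2.08), Itih5 (-1.53) and Ildr2 (-1.36). All these genes were called by the control-food difference that the interaction subtracts, so the count of 41 is no separate support. The share of all genes with a called interaction is not given here.

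Single arrays lay far from the rest of their group in 8 of 204 groups looked at. The groups are those of named genes, many of them picked because their groups did not overlap. The same arrays also recur, so this number cannot be set against chance. In the fourth wild-type array Cyp4a14 was lowest at 4.53 (next 7.95), and Tceal8 (7.06), Sqle (7.45) and Txnip (8.40) were highest. In the fourth PPARα-null array Lcn2 was highest at 7.10 and Mgll lowest at 8.31. In the first PPARα-null array Pdk4 (8.82) and Etfdh (9.52) were highest.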

How the results depend on the processing

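Across filters, scalings, an offset of 16, array weights, a trend with robust moderation and only the control arrays, 119 to 190 probe sets were called, against 159, and leaving out 1 array gave 124 to 147, with 110 called in all 8 such fits. Fits without 1 array gave 76 to 91 genes, 59 to 65 higher in wild type and 15 to 26 higher in PPARα-null, and by probe set 97 to 105 and 26 to 42. Requiring a fold significantly over 1.5 (limma's treat) left 49 probe sets (41 and 8) and 29 genes (25 and 4). At an adjusted p under 0.05 the numbers higher in PPARα-null were 83 probe sets and 52 genes. Array weights gave 131 and 59 probe sets in the respective directions and a filter on means above 6 gave 91 and 28. Mitochondrial fatty acid oxidation kept 10 to 13 called genes. How many calls recur on Wy14643 could not be given for a fit of the control arrays alone.

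The replicate numbers do not pair the mice by any label. Deviations of same-numbered arrays correlated at 0.162, 0.132, 0.0729 and 0.00665, and 6 of 8 arrays correlated best with their own number in the other genotype. With the replicate block 147 probe sets were called, 140 of them among the 159.

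Of the named called genes, 21 lost their call in at least 1 fit without an array, Cyp2c38 and Gstm4 in all 8 and Cyp4a14, Csad, Fitm1, Mlycd, Olfml1 and Pros1 in 7, Lamb3, Plin2, Src and Tceal8 in 6, Bco1, Ildr2 and Itih5 in 5, Ces1e, Cyp2u1 and Pxmp4 in 4, and Cxcl14, Igfbp2 and Slc22a5 in 3; without 1 array fewer samples are tested. Pdk4 and Acot4 passed in 1 such fit each (-3.26 without the first and -1.67 without the third wild-type array), and Pctp, Pdk4 and Acot4 passed with a filter on means above 4. Only genes that were not called changed sign, each without 1 array: Adipoq (0.0802, with a range of -0.478 to 0.0802 over these fits) and Fabp4 (0.110, from -0.406 to 0.110) without the second PPARα-null, Cela2a (-0.0149, from -0.0149 to 0.294) without the second wild-type, Usp2 (-0.229, from -0.229 to 1.41) without the third wild-type, and Pnpla2 (0.0020 and 0.0054, from -0.157) without the first wild-type and the third PPARα-null array. The causes were not tested. With 4 arrays a group, signals near background give bounds only.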
